A study of Mus musculus with 2 samples.

Results

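The 10 autosomal imprinted genes described here were read by parental class in hybrid fibroblasts. They lie in separate domains of the mouse genome, except Sgce and Peg10, which share a domain. Of 22711 genes listed in the deposited tables, these 10 were chosen by name as known imprinted genes, with earlier results of these data known. Of them, 7 are known as paternally expressed (Sgce, Peg10, Peg3, Impact, Plagl1, Ndn and Nnat) and 3 as maternally expressed (Grb10, Igf2r and H13). The cells were immortal mouse embryonic fibroblasts carrying 1 genome of the strain C57BL/6N (B6 below) and 1 of PWK/PhJ (PWK below). In the line PWK-Xi the inactive X chromosome is the PWK copy, and its strain field reads C57BL/6N X PWK/PhJ. In the line B6-Xi the inactive X is the B6 copy, and its strain field reads PWK/PhJ X C57BL/6N. Neither label states which strain was the mother, how many clones a line holds or any treatment, and both were cultured in the same medium.

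Each line gave 1 library of polyadenylated RNA, prepared by Smart-seq2, a method that makes full-length cDNA from little RNA. Without replicates no difference below has a test or an error. The values are FPKM, fragments relative to transcript length and to library size, given once per allele for every gene. The level of a gene is the sum of both alleles, and its B6 share is the B6 value as a percentage of that sum. Read depth was unknown, so no counting interval is given. Of the 22711 genes, 12907 were above 0 in PWK-Xi and 10127 in B6-Xi, and autosomal genes at 1 FPKM or more had a median B6 share of 52.8% in PWK-Xi and 50.0% in B6-Xi. Xist, the RNA made from the inactive X, came from PWK at 97.2% in PWK-Xi and from B6 at 99.5% in B6-Xi, as the line names state.

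Imprinted genes carry DNA methylation set differently in egg and sperm, and the mark is kept in somatic cells, so that transcripts come mainly from the copy of 1 parent. Many of these genes act on fetal growth, on the placenta or on the brain, and several lose their imprint or their expression in particular adult tissues. In a hybrid, the strain of the transcripts shows which strain's copy is read. If the class of a gene and the strain of each parent are known, the strain to be read follows.

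In both lines the paternally expressed genes were read mainly from PWK and the maternally expressed genes mainly from B6. With a minimum of 1 FPKM and a limit of 10% or 90% B6, 5 of 5 measured paternally expressed genes came from PWK in PWK-Xi, and 3 of 4 in B6-Xi. Of the 3 maternally expressed genes, 2 came from B6 in PWK-Xi and 2 in B6-Xi, the same genes in both, and H13 had both alleles. Among all autosomal genes at 1 FPKM or more, 1.62% in PWK-Xi and 9.09% in B6-Xi lay at or under 10% B6, and 3.29% and 5.42% lay at or over 90% B6. In both lines together, 3 of the 3 paternally expressed genes that reached 1 FPKM in both were from PWK, where 0.417% of 7441 autosomal genes were. Of the 3 maternally expressed genes 2 were from B6 in both lines, where 0.659% of those genes were. None of the 9 genes above 0 in both lines came from PWK in one line and from B6 in the other, although the strain fields name the strains in opposite order. The labels do not give the father, so pairing the paternal class with PWK and the maternal class with B6 rests on these genes themselves. What the counts show is agreement among the genes, not with known parents. The genes were chosen with earlier results of these data known, so the counts are a description and not a test. Nnat was the exception to that pairing and came from B6 in both lines.

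**Figure D1:**
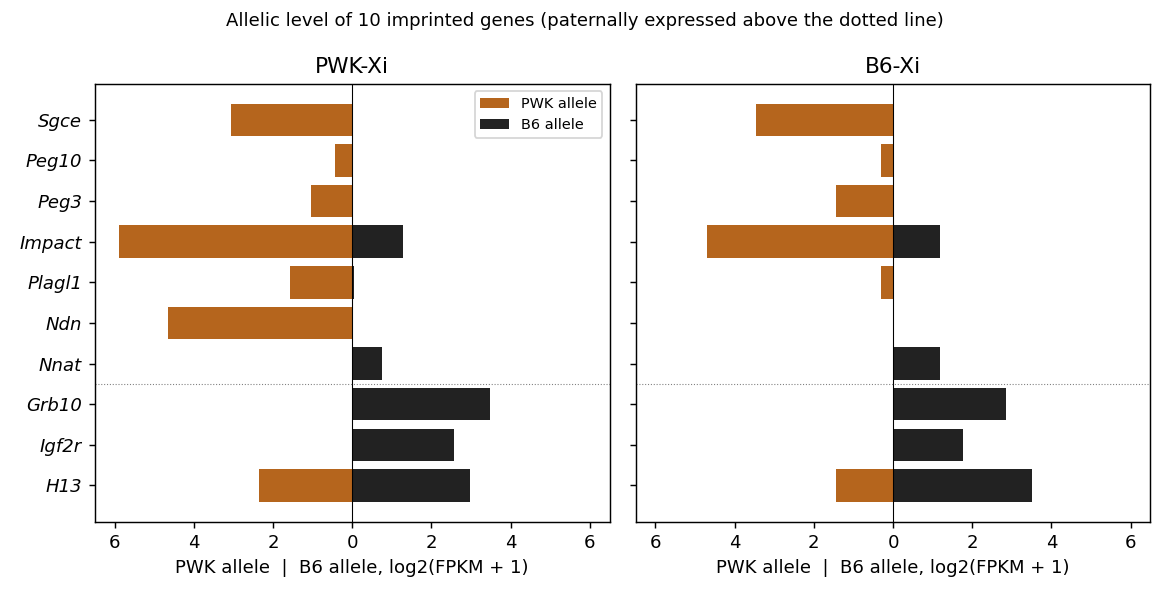
Allelic level of each of the 10 genes as log2(FPKM + 1), with the PWK allele drawn to the left of 0 and the B6 allele to the right, in PWK-Xi (left panel) and B6-Xi (right panel). The longer bars of Sgce, Peg10, Peg3, Plagl1 and Impact point to PWK and those of Nnat, Grb10 and Igf2r to B6 in both lines, Impact also has a shorter B6 bar (1.44 and 1.27 FPKM), H13 has bars on both sides, and Ndn has no bar in B6-Xi.

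The start-site windows of 4 genes, 1 for each way the class and the strain met, are printed with their CpGs marked. No methylation was measured, and these windows are not taken to be the regions that carry the imprint. They are the 250 bases upstream of the annotated start in RefSeq, build GRCm38.p6, read 5′ to 3′ on the strand of the gene, with CpGs in capitals. The deposited values were made on another build, mm9, and no coordinate of the files was used. Peg3 was read from PWK (chr7:6730420-6730669, minus strand), Nnat from B6 unlike most of its class (chr2:157559828-157560077, plus strand), Igf2r from B6 (chr17:12769707-12769956, minus strand), and H13 from both (chr2:152669211-152669460, plus strand).
Peg3: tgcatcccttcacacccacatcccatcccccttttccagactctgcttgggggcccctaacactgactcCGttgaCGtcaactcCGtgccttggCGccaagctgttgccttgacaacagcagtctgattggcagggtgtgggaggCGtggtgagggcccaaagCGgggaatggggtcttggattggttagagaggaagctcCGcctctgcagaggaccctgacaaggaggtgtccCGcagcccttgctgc
Nnat: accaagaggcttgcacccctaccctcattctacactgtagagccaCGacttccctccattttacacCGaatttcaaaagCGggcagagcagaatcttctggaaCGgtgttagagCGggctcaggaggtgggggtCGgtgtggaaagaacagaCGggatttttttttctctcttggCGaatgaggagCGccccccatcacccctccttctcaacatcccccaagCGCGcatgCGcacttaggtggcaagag
Igf2r: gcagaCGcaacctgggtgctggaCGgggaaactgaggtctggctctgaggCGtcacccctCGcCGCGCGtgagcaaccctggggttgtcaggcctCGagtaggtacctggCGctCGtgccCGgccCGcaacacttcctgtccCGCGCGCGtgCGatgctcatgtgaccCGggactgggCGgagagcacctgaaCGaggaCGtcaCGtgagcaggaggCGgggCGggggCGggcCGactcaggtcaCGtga
H13: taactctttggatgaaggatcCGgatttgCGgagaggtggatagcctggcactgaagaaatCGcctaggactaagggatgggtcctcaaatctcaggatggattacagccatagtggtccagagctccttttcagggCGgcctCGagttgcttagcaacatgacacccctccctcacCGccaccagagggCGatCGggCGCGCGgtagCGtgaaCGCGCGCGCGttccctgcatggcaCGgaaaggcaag

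The windows differed in CpG content, and the classes overlapped. Peg3 had 8 CpGs and Nnat 12, against 27 in Igf2r and 18 in H13. Such windows of RefSeq genes (32851 windows) had a median of 6. Of the 10 genes, 7 had a window in the table, and Grb10 had windows for 2 starts, so 8 windows were read. The fewest CpGs were the 5 of Ndn, and the most were the 40 of the first Grb10 window, above 98.7% of all windows. Plagl1 had 19 CpGs. The bases TGCCGC, the sequence that the imprint-keeping protein ZFP57 binds when methylated, were searched on both strands. They stood in 1 of the 8 windows, that of Plagl1, and in 8.68% of all windows. The bases GCATGCGC, the core bound by the factor NRF1, were searched on both strands after the sequences had been seen. They stood in the windows of Ndn and Nnat and in 2.26% of all windows. In Nnat 2 matches, 1 per strand, overlapped. A match is a description of the letters only.

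Among the paternally expressed genes, Impact was the most abundant. It codes for an inhibitor of the kinase GCN2, which slows translation when amino acids are short. In PWK-Xi Impact had 57.7 FPKM from PWK and 1.44 FPKM from B6, a B6 share of 2.44%. In B6-Xi it had 24.9 FPKM from PWK and 1.27 FPKM from B6, a share of 4.84%. The B6 allele was thus low but above 0 in both lines, and its level stayed nearly the same while the PWK allele was higher in PWK-Xi. Summed, Impact had 59.2 FPKM in PWK-Xi, above 95.1% of the genes detected there, and 26.2 FPKM in B6-Xi, above 88.1%.

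Sgce, the gene of epsilon-sarcoglycan, a protein of the membrane complex that ties the cytoskeleton to the matrix, had 7.34 FPKM in PWK-Xi and 10.01 FPKM in B6-Xi. All of it came from PWK, with the B6 allele listed at 0 in both lines. Peg10 lies head to head with Sgce on the opposite strand and codes for a protein derived from a retrotransposon that the placenta needs. It was at 0.354 FPKM in PWK-Xi and 0.233 FPKM in B6-Xi, again all from PWK. At such levels a share of 0% has little weight: among autosomal genes above 0 and below 1 FPKM, 19.4% in PWK-Xi and 35.4% in B6-Xi lay at or under 10% B6.

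The listed genes around Sgce and Peg10 that reached 1 FPKM were not read from PWK alone, but Tfpi2 leaned to PWK. Tfpi2 had 2.43 FPKM from B6 and 8.10 FPKM from PWK in PWK-Xi, a B6 share of 23.1%. It was listed at 0 in B6-Xi. Asb4, listed as maternally expressed, leaned to B6, with 0.857 FPKM from B6 and 0.286 FPKM from PWK in B6-Xi. In PWK-Xi Asb4 had 0.073 FPKM, all from B6. Casd1, beside Sgce, had B6 shares of 48.0% in PWK-Xi and 85.7% in B6-Xi, and the paraoxonase gene Pon2 had 73.3% and 58.8%. Pon3, known as maternally expressed in this domain in some tissues, had 6.52 FPKM in PWK-Xi and 1.50 FPKM in B6-Xi, 100% from B6 in both. Within the same stretch of chromosome 6, Sgce and Pon3 were therefore read from opposite strains in both lines.

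Peg3, a zinc finger gene with a part in growth and maternal behaviour, was close to the minimum. It had 1.05 FPKM from PWK and 0.0126 FPKM from B6 in PWK-Xi, and 1.69 FPKM from PWK and none from B6 in B6-Xi. Its domain neighbours Zim1 and Zim3 were listed at 0 in both lines, and Usp29 reached 0.029 FPKM in B6-Xi alone.

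Plagl1, also named Zac1, codes for a zinc finger factor that can halt the cell cycle and that acts on other imprinted genes. It had 1.98 FPKM from PWK and 0.040 FPKM from B6 in PWK-Xi, a B6 share of 1.98%. In B6-Xi it had 0.237 FPKM, all from PWK. Its neighbours Sf3b5 and Phactr2 had both alleles, with B6 shares of 55.9% and 66.1% in PWK-Xi and of 69.4% and 71.4% in B6-Xi.

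Ndn, the gene of necdin, a MAGE family protein of the region lost in human Prader-Willi syndrome, was seen in PWK-Xi alone. It had 24.3 FPKM there, all from PWK, and was listed at 0 for both alleles in B6-Xi. A value of 0 at this level was uncommon, since of 1724 autosomal genes that reached 20 FPKM in PWK-Xi, 2.73% stood at 0 in the other line. It cannot be read as absence of the transcript, because the housekeeping gene Gapdh had 48.2 FPKM in PWK-Xi and was listed at 0 in B6-Xi. The housekeeping genes Ppia and B2m, and the fibroblast gene Vim, were listed at 0 in both lines. Of the other paternally expressed genes of that domain, Mkrn3 had 0.340 FPKM, all from PWK, in PWK-Xi and was listed at 0 in B6-Xi, and Magel2 and Snrpn were listed at 0 in both. Ube3a, maternally expressed mainly in neurons, had both alleles, with B6 shares of 43.1% in PWK-Xi and 42.9% in B6-Xi. Atp10a, listed as maternally expressed, had a B6 share of 69.4% of 0.582 FPKM in PWK-Xi. In B6-Xi Atp10a leaned to PWK, with a B6 share of 23.1% of 2.00 FPKM.

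Unlike the other measured paternally expressed genes of the chosen set, Nnat was read from B6. It is the gene of neuronatin, a small membrane protein of the endoplasmic reticulum in brain and other tissues. It had 0.691 FPKM in PWK-Xi and 1.26 FPKM in B6-Xi, and both values came from B6 alone. The level was low, so the share is weak: between 1 and 5 FPKM 8.59% of autosomal genes in B6-Xi were at or over 90% B6, and below 1 FPKM 32.0% in PWK-Xi were. Nnat lies within Blcap on the opposite strand. Blcap had both alleles, with B6 shares of 44.4% of 9.43 FPKM in PWK-Xi and 37.5% of 10.6 FPKM in B6-Xi. No source used here says whether the libraries kept strand, so reads in the overlap of Nnat and Blcap are uncertain. Blcap had 5.24 FPKM from PWK in PWK-Xi and 6.65 FPKM in B6-Xi, and the PWK allele of Nnat was listed at 0 in both. Whether reads of Blcap entered the values of Nnat was not tested.

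Among the maternally expressed genes, Grb10 and Igf2r came from B6 alone. Grb10 codes for an adaptor that holds back signals of the insulin and IGF receptors, and it is read from the paternal copy in neurons. It had 10.2 FPKM in PWK-Xi and 6.24 FPKM in B6-Xi, with the PWK allele listed at 0 in both. Igf2r codes for the receptor that clears the growth factor IGF2 and carries enzymes to lysosomes. It had 4.94 FPKM in PWK-Xi and 2.39 FPKM in B6-Xi, with the PWK allele at 0 in both.

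Airn, the paternally expressed antisense RNA that overlaps Igf2r and silences it on the same copy, was the mirror image. It had 3.99 FPKM in PWK-Xi and 0.688 FPKM in B6-Xi, all from PWK. The listed values of Igf2r and Airn thus came from opposite strains in each line. In B6-Xi the share of Airn has little weight. Below 1 FPKM there, 35.4% of autosomal genes above 0 lay at or under 10% B6. Whether strand was kept is not given in the sources used, so reads of this pair in their overlap are uncertain. Slc22a2 and Slc22a3, imprinted in this domain in the placenta, were listed at 0 in both lines.

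H13, which codes for signal peptide peptidase, had both alleles. It had 6.90 FPKM from B6 and 4.15 FPKM from PWK in PWK-Xi, a B6 share of 62.5%. In B6-Xi it had 10.4 FPKM from B6 and 1.73 FPKM from PWK, a share of 85.7%. In both lines the B6 allele was the higher one. The paternal copy of H13 is known to give short transcripts that end near Mcts2, a gene inside it, and a single value per gene cannot separate those from full-length ones. Mcts2 itself was listed at 0 in both lines.

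Whole chromosomes and parts of them leaned to a strain in these lines, so each gene was also set beside its neighbours. These were up to 10 genes on each side in gene order with at least 1 FPKM in the line, other imprinted genes left out. The neighbours' median B6 share ran from 48.9% (Plagl1) to 56.7% (Peg3) in PWK-Xi and from 40.7% (Impact) to 69.7% (Plagl1) in B6-Xi. Around each gene, at most 1 neighbour lay at or under 10% B6 in either line, and at most 2 in PWK-Xi and 3 in B6-Xi at or over 90%. Plagl1 had a share of 0% in B6-Xi where its neighbours leaned to B6, but at 0.237 FPKM, a level at which 35.4% of autosomal genes there (those above 0 and below 1 FPKM) were at or under 10% B6. Grb10 had 100% in B6-Xi where its neighbours had a median of 46.8%. Nnat lay among genes that leaned to B6 in B6-Xi, with a median of 67.3%, but not in PWK-Xi, with 50.6%. The median around H13 was 50.9% in PWK-Xi and 62.9% in B6-Xi. H13 lay above its neighbours' upper quartile in both lines, at 62.5% against 61.8% in PWK-Xi and at 85.7% against 74.6% in B6-Xi.

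**Figure D2:**
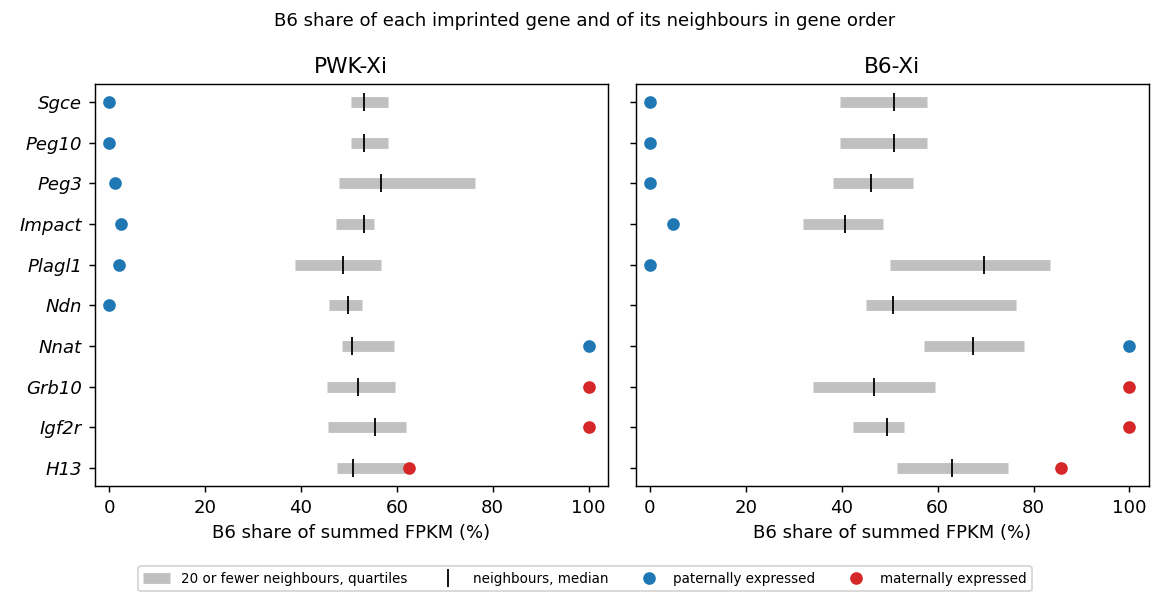
B6 share in percent of each of the 10 genes (points, blue for paternally and red for maternally expressed) with the median (black tick) and quartiles (grey bar) of its neighbours in gene order, in PWK-Xi (left panel) and B6-Xi (right panel). Points lie at the edges while the neighbours' medians lie between 40.7% and 69.7%, except H13, which lies between the limits in both lines; Ndn has no point in B6-Xi, where it was listed at 0.

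Other imprinted genes were read from a list of 22 paternally and 34 maternally expressed genes present in the files. With at least 1 FPKM, 4 of 6 paternally expressed genes came from PWK in PWK-Xi and 3 of 4 in B6-Xi, and none came from B6 in either line. Of the maternally expressed genes, 8 of 18 came from B6 in PWK-Xi and 2 of 14 in B6-Xi, and none came from PWK. Over all autosomal genes at 1 FPKM or more, 1.62% in PWK-Xi and 9.09% in B6-Xi lay at or under 10% B6. At or over 90% B6 lay 3.29% and 5.42%.

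The paternally expressed genes from PWK were Igf2, a fetal growth factor gene (2.98 FPKM), Kcnq1ot1, the antisense RNA of its domain (1.28 FPKM), Airn and the amino acid transporter gene Slc38a4 (2.86 FPKM) in PWK-Xi. In B6-Xi they were Slc38a4 (8.77 FPKM), Zrsr1 (2.16 FPKM) and Dlk1 (8.21 FPKM). Dlk1 lies on chromosome 12, whose genes had a median B6 share of 52.9% in PWK-Xi and of 0% in B6-Xi. In PWK-Xi, Dlk1 had 7.06 FPKM with a B6 share of 16.9%. Inpp5f had both alleles, with 47.0% in PWK-Xi and 33.3% in B6-Xi.

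The maternally expressed genes from B6 in PWK-Xi were H19, Cdkn1c, Phlda2, Meg3, Rian, Cd81, Pon3 and Copg2, each with the PWK allele listed at 0, at 1.08 FPKM (Copg2) to 103.0 FPKM (Cd81). Cdkn1c, a cyclin-dependent kinase inhibitor gene, had 2.00 FPKM in PWK-Xi and 1.41 FPKM in B6-Xi, 100% from B6 in both lines, as had Pon3. The other 6 were listed at 0 in B6-Xi. Among them, Meg3 and Rian lie on chromosome 12, whose genes had a median B6 share of 0% in that line. Among the listed genes with both alleles in both lines were Gnas, Ube3a, Commd1, Dcn, Blcap, Tssc4, Osbpl5, Pon2, Nap1l4 and Tnfrsf23, several of which are known to be imprinted in particular tissues only. Gnas, the gene of a stimulatory G protein subunit, had B6 shares of 52.6% of 197.3 FPKM in PWK-Xi and 69.4% of 161.4 FPKM in B6-Xi. Dcn, imprinted in the placenta, had 49.4% of 456.4 FPKM and 67.5% of 79.1 FPKM. Grb10 and Igf2r, at 100% in both lines, therefore stood with Cdkn1c and Pon3, and H13 stood nearer to genes such as Gnas.

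**Figure D3:**
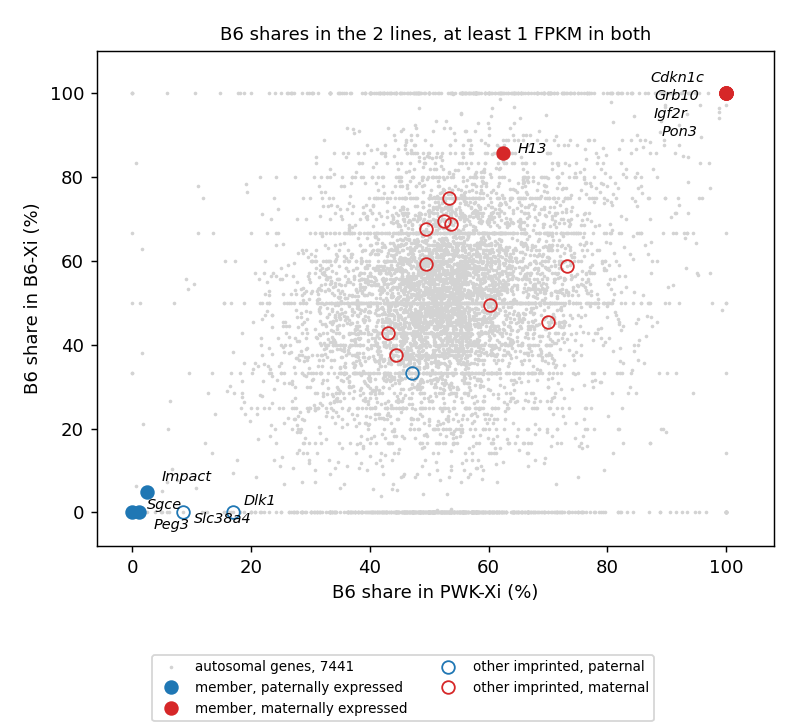
B6 share in PWK-Xi (horizontal axis, percent) against that in B6-Xi (vertical axis, percent) for the 7441 autosomal genes that reached 1 FPKM in each line (grey), with the chosen genes as filled circles and other imprinted genes as open circles, blue for paternally and red for maternally expressed. Sgce, Peg3 and Impact lie at the lower left corner, Grb10, Igf2r, Cdkn1c and Pon3 lie on one another at the upper right corner, and most open red circles lie in the middle.

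Genes off the imprinted lists had these patterns too. Of 7441 autosomal genes at 1 FPKM or more in both lines, 31 lay at or under 10% B6 in both and 49 at or over 90%. The 31 held 3 of the 10 genes and 1 other listed paternal gene. The 49 held 2 of the 10 and 2 other listed maternal genes. Most genes with either pattern were thus not on the lists. Among 3487 autosomal genes that reached 5 FPKM in each line, off the imprinted lists and off chromosomes 4 and 12, likeness was taken as the distance between the pair of shares and 0% or 100% in both lines. Genes tied in distance were ordered by their FPKM summed over both lines, and the first 3 per pattern were named. For the paternal pattern these were Hist1h2ah, Wfdc17 and Thap7, and for the maternal pattern Gm12191, Gm6251 and 2200002D01Rik. All 6 had a distance of 0 points, and other genes may share it. Hist1h2ah belongs to a family of near-identical copies, and its share is uncertain.

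Total levels were compared as log2((PWK-Xi + 1)/(B6-Xi + 1)), a scale that understates changes of low genes. Of the 9 genes that reached 1 FPKM in one line or both (all but Peg10), 3 were at least 2-fold higher in PWK-Xi, none was at least 2-fold lower, and 6 lay within 2-fold. Among all 9451 such genes, 18.1% passed 2-fold upward and 4.84% downward. The median log2 difference was 0.62 over the 9 genes and 0.23 over all. Autosomal genes above 0 in both lines had a median log2 ratio of 0.18, and relative to it the median of the 9 genes was 0.44.

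The 3 higher genes were all paternally expressed. Ndn had 24.3 FPKM in PWK-Xi and was listed at 0 in B6-Xi, so no fold is given. Plagl1 had 2.02 FPKM in PWK-Xi against 0.237 FPKM in B6-Xi, a log2 difference of 1.29. Impact, at 59.2 FPKM in PWK-Xi against 26.2 FPKM in B6-Xi, had a log2 difference of 1.14, which became 0.96 relative to the autosomal median and so under 2-fold. The other paternally expressed genes lay below 0, between -0.42 for Nnat and -0.39 for Peg3, except Peg10 at 0.14. Grb10 and Igf2r lay within 2-fold on this scale, at log2 differences of 0.62 and 0.81. H13 had a difference of -0.12. Neither parental class moved in 1 direction.

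**Figure D4:**
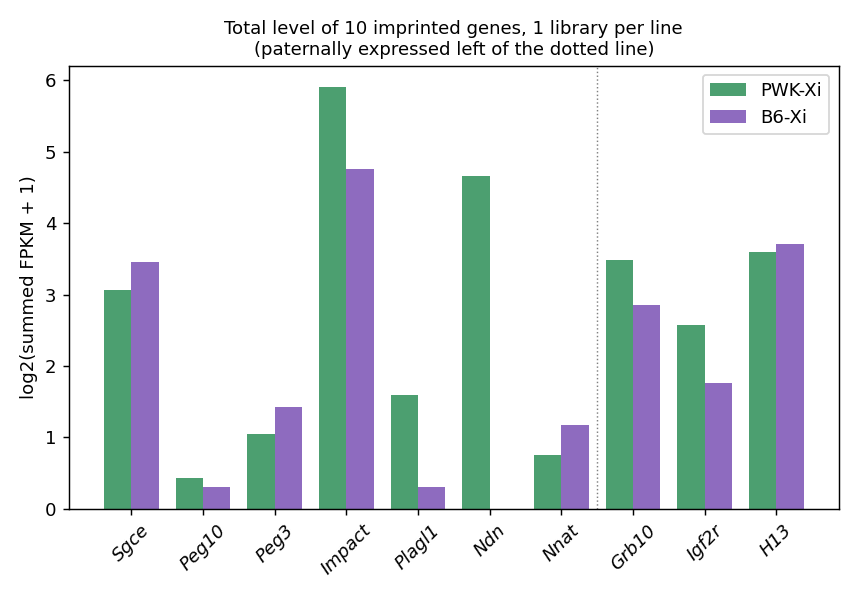
Total level of each of the 10 genes as log2(summed FPKM + 1), with PWK-Xi (green) left of B6-Xi (purple), 1 library each. Impact, Plagl1 and Ndn have the largest excess in PWK-Xi, and Sgce, Peg3, Nnat and H13 are slightly lower there.

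Markers of other cell types differed between the libraries. In bulk RNA, fewer cells of a type and less RNA per cell cannot be told apart. Of 13 fibroblast genes, 12 were above 0 in PWK-Xi and 11 in B6-Xi, and Vim was at 0 in both. They summed to 3089 FPKM in PWK-Xi and 13386 FPKM in B6-Xi, mostly S100a4 (2321 and 13006 FPKM). The others went both ways. Dcn (456.4 and 79.1 FPKM), Prrx1, Pdgfra, Pdgfrb, Fn1 and Lum were higher in PWK-Xi. Col1a2 (69.2 and 134.3 FPKM), Col1a1, Col3a1, Thy1 and, slightly, Twist1 were lower there. Of 8 pluripotency genes, 7 were above 0 in PWK-Xi, with a summed 154.6 FPKM of which 99.3% was from B6, and none was above 0 in B6-Xi. Most of it was Dppa5a, with 134.9 FPKM. Of 9 neural genes, 5 were above 0 in PWK-Xi (summed 13.8 FPKM) and 2 in B6-Xi (summed 3.68 FPKM), with Map2, Syp, Rbfox3 and Olig2 at 0 in both. Tubb3 had 5.32 FPKM in PWK-Xi and 2.91 FPKM in B6-Xi, and Stmn2 had 5.22 FPKM in PWK-Xi and was at 0 in B6-Xi. Of 6 epithelial genes 3 were above 0 in PWK-Xi and none in B6-Xi, at a summed 1.03 FPKM. Endothelial genes summed to 0.205 FPKM in PWK-Xi and 0.048 FPKM in B6-Xi. Immune genes summed to 3.30 FPKM in PWK-Xi and 1.39 FPKM in B6-Xi. The part of such transcripts in the levels of Impact, Plagl1, Ndn, Grb10 and Igf2r in PWK-Xi was not tested.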

How the data were processed

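The authors deposited, for each of the 2 libraries, a table of FPKM values with 1 column per allele, per the file headers. The tools named in the submitters' processing notes are StringTie 2.1.1, HISAT2 2.2.0 and Trim Galore 0.6.4, on mm9. The assignment of reads to strains and the strandedness are not given in the sources used. Depth is unknown. A B6 share of 50%, within 0.001 points, was found for 1.28% of autosomal genes at 1 FPKM or more in PWK-Xi and 5.64% in B6-Xi, so shares were coarser in B6-Xi.

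Groups were taken from the titles. B6 shares used no pseudocount, and log2 differences a pseudocount of 1 FPKM. Counts used a minimum of 1 FPKM and limits of 10% and 90% B6. With 1 library per line no test was made. Chromosome and gene order came from GENCODE M21 and RefSeq by symbol (21631 by GENCODE name, 196 by RefSeq symbol, 802 by synonym, 82 unmatched), on GRCm38, and start-site windows from RefSeq.

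The members and lists were chosen with earlier results of these data known. Named were the 10 genes, other listed imprinted genes that reached 1 FPKM and imprint maintenance genes. Most but not all listed neighbours and family members that reached 1 FPKM were described. The neighbours Osbpl1a, Ltv1 and Ctnnbl1 and, of the family lists, Atf4 and Eif2ak3 were not, and each had both alleles in both lines. Also named were the 3 genes per class of most similar shares, with ties ordered by summed FPKM. Others were named after their values were seen. The software was pandas 2.3.3, numpy 2.4.6 and matplotlib 3.10.9 under Python 3.11.15, and the steps were tested on simulated data.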

Additional observations from a re-analysis of the deposited data

How the results depend on the processing

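No paired analysis was possible because each line had 1 library. Leaving out a replicate was not possible for the same reason. With a minimum of 5 FPKM, 3 of 3 paternally expressed genes of the 10 came from PWK in PWK-Xi, and 1 of 2 maternally expressed genes came from B6 in PWK-Xi and 1 of 2 in B6-Xi. Matched here means a paternal gene from PWK or a maternal gene from B6, the pairing taken from these genes. Of the other imprinted genes at that minimum, 0 of 1 paternal and 2 of 10 maternal ones matched in PWK-Xi, and 0 of 8 maternal ones in B6-Xi. Of autosomal genes from 5 to under 20 FPKM, 1.11% in PWK-Xi and 7.09% in B6-Xi lay at or under 10% B6. At or over 90% lay 2.47% and 3.14%. From 20 FPKM up, the shares were 1.28% and 5.40%, and 2.26% and 2.00%. With no minimum in B6-Xi, 5 of 6 paternally expressed genes of the 10 matched, as did 6 of 8 other paternal and 4 of 17 other maternal genes. Below 1 FPKM there, 35.4% of autosomal genes above 0 lay at or under 10% B6 and 29.0% at or over 90%. With limits of 20% and 80%, H13 counted as read from B6 in B6-Xi. The median log2 difference was 0.44 over 9 genes relative to the autosomal median, and 0.38 over all 10 with no minimum. With a pseudocount of 0.1 FPKM, 4 genes in place of 3 were at least 2-fold higher in PWK-Xi, and 2 were relative to the autosomal median. Of 38 shares recomputed with alleles scaled to equal totals or with 0.1 FPKM added to each allele, none crossed 50%, and 7 moved by 5 points or more, all with 0.1 FPKM added, for Peg10, Peg3, Plagl1 and Nnat. The 40 neighbour medians with 5 or 20 genes on each side stayed within 10 points. Low levels limit Peg10, Nnat and, in B6-Xi, Plagl1.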

Other observations

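Relatives of the imprinted genes were measured with the same shares and levels. Grb14, which codes for an adaptor of the same family as Grb10 and is not on the imprinted lists, had 5.22 FPKM in PWK-Xi and 33.9 FPKM in B6-Xi, with B6 shares of 100% and 97.1%; its relative Grb7 was listed at 0 in both. It lies on chromosome 2, and the level in PWK-Xi was the lower one, unlike that of Grb10. Sgcb, a relative of Sgce, had 1.05 FPKM in PWK-Xi and 3.04 FPKM in B6-Xi, with B6 shares of 25.4% and 52.0%. The relatives of signal peptide peptidase, Sppl2a, Sppl2b and Sppl3, had B6 shares of 46.9%, 53.8% and 32.6% in PWK-Xi and of 37.8%, 54.5% and 55.6% in B6-Xi, without the B6 lean that H13 had in both lines. Plagl2, a relative of Plagl1, had 4.11 FPKM in PWK-Xi and 2.79 FPKM in B6-Xi, with B6 shares of 47.7% and 92.3%. The X-linked relatives of Ndn, Maged1, Maged2 and Mageh1, came from the active X alone in both lines, and Maged2 had 18.8 FPKM in PWK-Xi and 82.3 FPKM in B6-Xi. Ndnl2, on chromosome 7 like Ndn, had both alleles, with 44.4% in PWK-Xi and 50.0% in B6-Xi. Gcn1l1, whose protein Impact binds, had 7.42 FPKM in PWK-Xi and 5.19 FPKM in B6-Xi, and Eif2ak4, the gene of the kinase GCN2, had 1.68 FPKM and 0.543 FPKM.

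Genes that set or keep imprints, or remove DNA methylation, varied in level. Trim28, a corepressor gene, had 38.1 FPKM in PWK-Xi and 37.0 FPKM in B6-Xi. The maintenance methyltransferase gene Dnmt1 had 10.7 and 6.41 FPKM, and Uhrf1, which recruits its product, had 13.1 and 8.95 FPKM. Zfp57 had 1.92 and 0.536 FPKM and Zfp445 had 3.78 and 3.74 FPKM, both of them genes of zinc finger proteins that bind imprinting control regions. Ctcf had 9.35 and 6.49 FPKM, and Smchd1 had 6.63 and 4.30 FPKM. The de novo methyltransferase genes Dnmt3a and Dnmt3b and the cofactor gene Dnmt3l stayed at or under 0.519 FPKM in both lines, with Dnmt3l listed at 0 in B6-Xi, and Tet1, Tet2 and Tet3 at or under 1.04 FPKM. Dppa3 had 0.340 FPKM in PWK-Xi and was listed at 0 in B6-Xi.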
